A study of Mus musculus with 8 samples.

Results

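The comparison described here set dorsal skin of mice treated with maslinic acid against dorsal skin of mice treated with Milli-Q water. It took the 2 arrays titled maslinic acid and the 2 titled control, chosen by those titles, which were 4 of the 8 arrays of the series. The other 4 arrays, 2 of tieghemelin, the other plant compound, and 2 of the drug minoxidil, served to estimate the spread and for the comparisons at the end. All groups were male C3H mice bought at 7 weeks of age and kept for 7 days before they were randomised to groups of 8. The dorsal hair of every group, the controls included, was trimmed and then removed with a depilatory cream under isoflurane. The treated mice received a daily topical application for 20 days, of 1% maslinic acid, 1% tieghemelin or minoxidil. For 1 minoxidil array the labelled doses differ (1% in one field and 2% in another). The vehicle in which the compounds were given is not stated in the sources used here. Biotin-labelled RNA was made from 9.4 µg of total RNA and hybridised to Clariom S Mouse arrays, which carry 1 probe set for most genes. The labels do not tie an array to a mouse or to a pool of mice, so the p-values below measure only how far these arrays scatter, and that scatter may be technical.

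Maslinic acid is a pentacyclic triterpene acid of olives and other plants, and is known as an inhibitor of glycogen phosphorylase, the enzyme that releases glucose units from glycogen. Removal of hair from mouse dorsal skin starts a new growth phase in which the follicle rebuilds the hair shaft, from hair keratins and keratin-associated proteins, inside an inner root sheath. Beneath the dermis and its fat layer, mouse dorsal skin carries the panniculus carnosus, a thin sheet of mostly fast skeletal muscle, so that full-thickness skin samples contain muscle RNA.

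The values are log2 values per probe set as deposited, and 22206 probe sets that are not array controls were tested. As a background level for each array, the median of its 23 antigenomic probe sets (sequences absent from the mouse genome) was taken. It does not decide whether a given probe set was detected. It was 7.75 and 7.61 on control arrays 1 and 2 and 6.97 and 7.08 on maslinic acid arrays 1 and 2, and 56.9%, 62.4%, 80.3% and 77.7% of probe sets read above it. Control array 1 stood apart from all others. Over probe sets, its correlation was 0.53 with control array 2 and 0.54 and 0.52 with the maslinic acid arrays, whereas the other 7 arrays correlated with each other at 0.90 to 0.97. The spiked bacterial control bioB read 4.49 on it and at least 8.29 on each other array. The keratins Krt5 and Krt10 read above background on all 4 arrays, as did Krt1, whereas Krt14, the basal keratin of epidermis, read 7.26 on control array 1, below its background, and 9.14 to 10.68 on the other 3. Lists are therefore given against both control arrays and against control array 2 alone, and single genes with their value on each array.

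The difference from control array 1 depended on how bright a probe set was on the minoxidil and tieghemelin arrays. From the dimmest to the brightest decile of probe sets, the median log2 difference, maslinic acid minus control array 1, went from -0.91 to 1.93, and it was 4.06 among the brightest 2%. Against control array 2 the medians of the same deciles lay between -0.05 and 0.03. The plot of differences by brightness shows the mean of both control arrays lying between these lines.

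**Figure D1:**
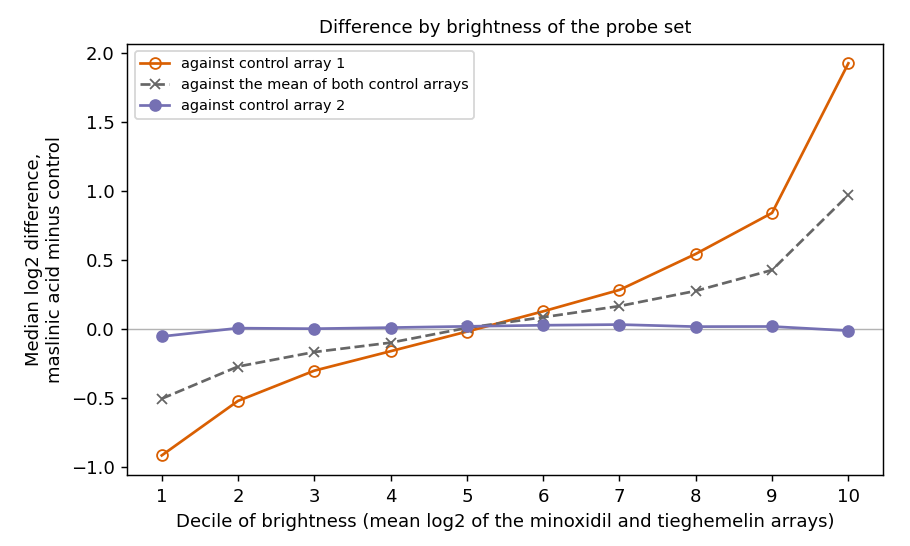
Median log2 difference between the mean of the 2 maslinic acid arrays and control array 1, control array 2 or their mean (y axis), in deciles of the probe sets ordered by their mean log2 value on the 4 minoxidil and tieghemelin arrays (x axis). The line for control array 1 runs from -0.91 to 1.93, and the line for control array 2 stays between -0.05 and 0.03.

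The study called a gene at a fold change of 1.7 or more with an unadjusted p up to 0.05. At these thresholds limma called 1420 probe sets higher (6.39% of those tested) and 989 lower (4.45%) with maslinic acid than with water, in a fit on all 8 arrays. After Benjamini-Hochberg adjustment 0 of them had a p under 0.05, while 2409 had an unadjusted p up to 0.05, and the smallest adjusted p was 0.448. Without control array 1, limma called 1380 higher (6.21%) and 1460 lower (6.57%), and 1 probe set passed the adjustment. In that fit control array 2 is the only control and is assumed to vary as the other groups do. The fits share control array 2 and both maslinic acid arrays, and 1190 probe sets were called by both in the same direction, 49.4% of the first set and 41.9% of the second. Leaving out control array 2 instead raised the count at the study's thresholds from 2409 to 10499, leaving out maslinic acid array 2 lowered it to 773, leaving out maslinic acid array 1 lowered it to 1034, and leaving out either tieghemelin array lowered it to 1545. The arrays of the compared groups did not overlap for 4626 probe sets that were higher with maslinic acid (20.8%) and for 3972 that were lower (17.9%).

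The probe set that passed the adjustment against control array 2 belonged to Aldoa, the glycolytic aldolase that is abundant in fast muscle. Aldoa read 12.35 and 15.51 on control arrays 1 and 2 and 10.85 and 9.66 on maslinic acid arrays 1 and 2, so that both treated arrays lay below both controls. It fell by 5.25 on the log2 scale (SE 0.56) against control array 2, a 38.2-fold lower value, with limma's adjusted p at 0.0441. Against both controls the difference was -3.67 (SE 0.94), with limma's adjusted p at 0.448. Over the alternatives tried against control array 2, its adjusted p from limma ranged from 0.00266 to 0.431, and the call was lost on leaving out maslinic acid array 2 or any 1 of the tieghemelin and minoxidil arrays. It was also lost with dim probe sets filtered out, after quantile normalisation and in an unmoderated linear model.

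Genes of contractile muscle made up most of the genes that were lower with maslinic acid than on both control arrays by the largest margin. Under the rule for named genes, 529 lower genes qualified, and the 12 with the largest distance to the nearer control array were Myh4, Myh8, Tnnt3, Mylpf, Tpm2, Des, Zfp106, Fhl1, Ndrg2, Atp2a1, Myh1 and Aldoa, of which 10 belong to the muscle lists. Myh4 encodes the myosin heavy chain of the fastest fibres, Myh1 that of the next fast type, and Myh8 the perinatal heavy chain. Tnnt3, Mylpf and Tpm2 encode the fast troponin T, the fast regulatory light chain and beta-tropomyosin. Des encodes the intermediate filament desmin, and Atp2a1 the calcium pump of fast sarcoplasmic reticulum.

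Myh4 read 17.03 and 16.77 on control arrays 1 and 2, 14.15 on maslinic acid array 1 and 9.05 on maslinic acid array 2. The groups did not overlap, as the rule for named genes requires. The maslinic acid arrays, however, lay further from each other than the first of them lay from the controls. The difference was -5.30 (SE 1.31) against both controls and -5.17 (SE 1.41) against control array 2. Myh8 read 17.94 and 17.59 on the control arrays and 14.80 and 11.73 on the maslinic acid arrays, a difference of -4.50 (SE 0.86). Tnnt3 read 15.87 and 16.25 against 13.88 and 9.82, a difference of -4.21 (SE 1.15). Maslinic acid array 2 was the lower of the pair for both. Mylpf read 15.68 and 17.58 on the control arrays and 15.20 and 8.47 on the maslinic acid arrays. Here maslinic acid array 1 sat only just below control array 1, and the difference of -4.80 (SE 1.89) rests on array 2. For all 12 genes limma's adjusted p against both controls was between 0.448 and 0.453, and their unadjusted p between 0.00032 and 0.0343.

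Desmin, tropomyosin and the calcium pump had closer replicates. Des read 10.70 and 9.70 on the control arrays and 7.77 and 6.79 on the maslinic acid arrays, a difference of -2.91 (SE 0.49), with maslinic acid array 2 below its background. Tpm2 read 13.21 and 13.80 against 11.41 and 9.84, a difference of -2.88 (SE 0.56). Atp2a1 read 12.63 and 14.02 against 10.98 and 9.98, a difference of -2.84 (SE 0.71). In each of these genes the 4 arrays separated by group, as the rule for named genes requires. Zfp106, which encodes a zinc finger protein that binds RNA, read 10.98 and 10.89 on the control arrays and 9.09 and 7.92 on the maslinic acid arrays, a difference of -2.44 (SE 0.44). Ndrg2, an alpha/beta-hydrolase fold protein, read 10.37 and 10.28 against 8.50 and 7.70, a difference of -2.23 (SE 0.46). Fhl1, a LIM-domain protein of skeletal muscle, differed by -3.77 (SE 0.94) against both controls and by -5.20 against control array 2 alone. Myh1, Myh4 and Myh8 are close copies in 1 gene cluster, and how far each probe set reads the others was not tested.

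**Figure D2:**
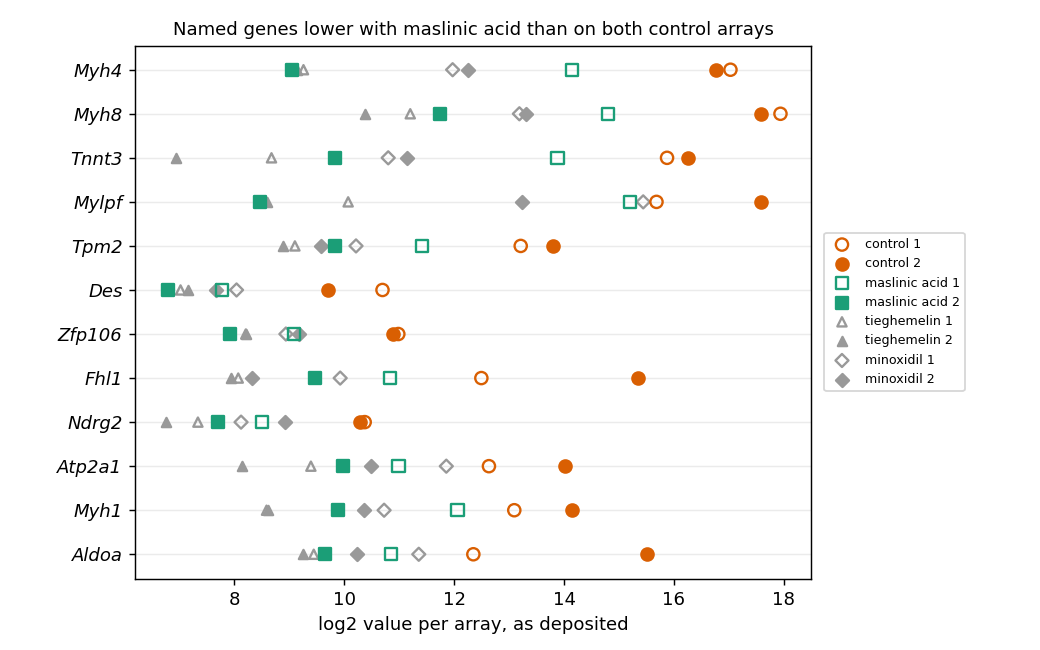
Deposited log2 values (x axis) of the 12 named lower genes on each of the 8 arrays, with 1 point per array. Myh4 stands at 17.03 and 16.77 on the control arrays and at 14.15 and 9.05 on the maslinic acid arrays. For each gene both maslinic acid points lie left of both control points, as the rule for named genes requires.

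The promoters of 3 of these genes with a RefSeq entry (build GRCm38.p6) are given because their genes differed most and because muscle genes of this kind carry known short elements near the start site. Each sequence is the stretch of 250 bases just upstream of the start of the gene, 5′ to 3′ on the coding strand, at chr11:67237562-67237811 (+) for Myh4, chr11:67276874-67277123 (+) for Myh8 and chr7:127211358-127211607 (+) for Mylpf. Capitals mark CAGCTG (an E-box of the kind bound by myogenic factors), CATTCC (the MCAT element) and TATAAA (the letters of a TATA box). Matches were taken on either strand, so that TTTATA is TATAAA on the other strand. The letters alone do not tell whether a match serves as a TATA box.
Myh4: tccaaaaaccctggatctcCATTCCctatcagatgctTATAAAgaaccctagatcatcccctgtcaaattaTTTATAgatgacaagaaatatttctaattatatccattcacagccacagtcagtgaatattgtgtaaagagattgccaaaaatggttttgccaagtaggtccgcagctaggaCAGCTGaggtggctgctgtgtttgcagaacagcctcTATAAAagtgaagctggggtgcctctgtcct
Myh8: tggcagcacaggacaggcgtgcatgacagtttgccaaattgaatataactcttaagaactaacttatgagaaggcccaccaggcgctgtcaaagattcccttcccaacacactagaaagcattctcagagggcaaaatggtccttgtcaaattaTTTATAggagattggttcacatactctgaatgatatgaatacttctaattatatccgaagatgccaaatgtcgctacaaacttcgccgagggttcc
Mylpf: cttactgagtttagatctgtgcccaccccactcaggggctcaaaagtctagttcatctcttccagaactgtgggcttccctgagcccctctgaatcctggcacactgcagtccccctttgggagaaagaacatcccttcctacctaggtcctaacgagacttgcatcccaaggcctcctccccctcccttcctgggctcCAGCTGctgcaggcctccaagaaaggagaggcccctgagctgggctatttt
Counted from the start of the gene, with -1 the last base before it, the E-box of Myh4 lay at -67 to -62 and a TATA box at -31 to -26, with 2 further TATAAA matches and 1 CATTCC match farther out. In Mylpf an E-box lay at -51 to -46 and neither of the other motifs matched in this window, and Myh8 held 1 TATAAA match on the other strand. CAGCTG is its own reverse complement, and no marked matches overlapped. Of 66 genes of the muscle lists with a promoter in the table, 28 held CAGCTG (42.4%), against 12.8% of all 27025 genes there. CATTCC was in 21.2% of the muscle genes and 12.6% of all genes, and TATAAA in 11 of 66 muscle genes and 3504 of 27025 genes. These matches describe the letters, and no binding was measured.

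Markers of skeletal muscle fibres were lower on the maslinic acid arrays than on the control arrays. All 20 measured members had a lower mean with maslinic acid than with water, 12 were called lower at the study's thresholds, where 4.45% of all probe sets were, and 0 were called higher. The groups did not overlap for 12, all lower, where 17.9% of all probe sets were lower without overlap. Their median log2 difference was -2.57 against both controls, where that of all probe sets was 0.05. Against control array 2 alone 19 of 20 were called lower, with a median of -3.32, and against control array 1 alone the median was -1.26. The median was -2.38 on maslinic acid array 1 and -4.16 on maslinic acid array 2, both set against control array 2. Against the same control array the median of the list was -4.70 on the tieghemelin arrays and -3.15 on the minoxidil arrays, so that the median lay below it in all 3 treated groups, which share that control. Of skin made of several cell types these arrays give 1 value per gene, so that fewer muscle fibres in the sample and less muscle RNA per fibre cannot be told apart.

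The range within that list was wide. Myl1, the fast essential light chain, read 12.04 and 18.60 on control arrays 1 and 2 and 15.27 and 10.66 on the maslinic acid arrays. Its groups overlapped through control array 1, and its difference was -5.63 (SE 1.56) against control array 2 but -2.35 (SE 2.18) against both. Tnni2, the fast troponin I, read 11.29 and 15.26 against 12.17 and 8.35. Ckm, the muscle creatine kinase, had the smallest difference of the list, -0.39 against control array 2.

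Of 44 genes of the sarcomere and thin filament, which share many members with the marker list, 39 were lower and 5 higher against both controls, with 15 called lower, 0 called higher and a median of -1.04. Against control array 2, 28 were called lower (6.57% of all probe sets were) and 0 higher, with a median of -1.84. Both maslinic acid arrays lay below control array 2 for 34 of the 44, and for 8307 of all 22206 probe sets. Not every member was lower, as 2 genes of slow fibres, chosen after their values were seen, show. The list holds other genes of slow fibres that are not given here, so these 2 do not describe slow fibres as a set. The slow troponin T Tnnt1 read 9.60 and 9.63 on the control arrays and 9.88 and 9.98 on the maslinic acid arrays. The slow light chain Myl3 read 8.66 and 9.98 against 10.10 and 10.002. Regulators of muscle stem cells and myoblasts (Pax7, Myod1 and others) were near background, since only 3 of 8 measured members read above it on both maslinic acid arrays and 3 on control array 2. Pax7 and Myod1 were not among the 3 on the maslinic acid arrays. Of these 8, 0 were called in either direction against both controls, and their median differences were -0.26 against both controls and 0.05 against control array 2.

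Calcium handling and energy metabolism of muscle differed less than the filaments. Beside the counts called here and for glycogen, 6.39% of all probe sets were called higher and 4.45% lower against both controls. For these and the lists below, the shares against control array 2 are those given with the totals above. Of 22 calcium handling and excitation genes, 4 were called lower and 1 higher against both controls (median -0.30), and 7 lower and 0 higher against control array 2 (median -0.34). Trdn, the junctional protein triadin, read 10.35 and 15.38 on control arrays 1 and 2 and 13.26 and 10.31 on the maslinic acid arrays, so that the groups overlapped. Casq1, the calcium store protein calsequestrin, was -0.95 (SE 1.04) against both controls and -2.80 (SE 0.50) against control array 2. Of 22 muscle energy genes, 4 were called lower and 0 higher against both controls (median -0.68), and 11 lower and 0 higher against control array 2 (median -1.01). Besides Aldoa these included the oxygen store myoglobin, Mb, at 10.54 and 12.38 against 10.18 and 8.97. Car3, a carbonic anhydrase of muscle and fat, read 10.04 and 15.29 against 11.96 and 9.39.

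Glycogen metabolism is of interest because maslinic acid acts on glycogen phosphorylase. Of its 23 measured genes, 1 was called higher and 1 lower against both controls, with a median of -0.17, and 1 higher and 5 lower against control array 2, with a median of -0.11. Pygm, the phosphorylase of muscle, read 10.54 and 13.28 on control arrays 1 and 2 and 11.20 and 10.19 on the maslinic acid arrays. Its groups overlapped, with a difference of -1.22 (SE 0.86) against both controls and -2.59 (SE 0.56) against control array 2. The other phosphorylases, chosen after their values were seen, were not lower on average. Pygl, of liver, read 8.16 and 9.04 against 9.34 and 8.86, and Pygb, of brain, read 5.34 and 7.001, both below background, against 7.09 and 8.01. The members furthest from control array 2 were Ppp1r3a and Ppp1r3c, which target a phosphatase to glycogen, Pygm, and Ugp2, which makes UDP-glucose. Ppp1r3a read 11.11 and 12.79 against 11.61 and 8.69, and Ugp2 read 9.78 and 11.16 against 9.97 and 8.05. For these 4 genes limma's adjusted p against control array 2 was between 0.122 and 0.24. Ppp1r3a and Pygm are expressed mainly in muscle, and the lower muscle markers given above stand beside them. The part of the muscle content in these values was not tested.

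Genes that were higher with maslinic acid than on both control arrays were of mixed kinds. Under the same rule 1017 higher genes qualified, and the 12 with the largest distance to the nearer control were Clec2m, Olfr206, Defb46, Defa43, Olfr994, Ms4a7, Slc15a5, Tgm4, Clca3b, Scgb2b3, Msh5 and Olfr906. They include secreted defence peptides (the beta-defensin Defb46 and the alpha-defensin Defa43), 3 olfactory receptors, a C-type lectin (Clec2m), a membrane protein of macrophages (Ms4a7), a transglutaminase (Tgm4) and a meiotic mismatch repair factor (Msh5). The tieghemelin and minoxidil arrays read above both control arrays for several of them, and values are given side by side, since the controls are shared. Defb46 read 12.18 and 11.99 on the tieghemelin arrays and 12.29 and 11.64 on the minoxidil arrays, Ms4a7 read 9.79 and 9.98 on the former and 10.61 and 9.89 on the latter, and Clec2m read 10.56 and 9.87 on the former and 9.55 and 9.15 on the latter.

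Clec2m read 7.93 on both control arrays and 10.59 and 10.91 on the maslinic acid arrays. The replicates of each group were close, and the difference of 2.82 (SE 0.39), a 7.06-fold higher value, had limma's smallest unadjusted p among the 24 named genes, 8.78e-05, with an adjusted p of 0.448. Defb46 read 8.79 and 9.70 against 12.28 and 12.02, a difference of 2.90 (SE 0.44). Ms4a7 read 8.02 and 8.24 against 10.54 and 9.93, a difference of 2.10 (SE 0.41). Defa43 read 8.92 and 9.01 against 10.84 and 11.34, a difference of 2.13 (SE 0.52). These 4 genes were separated by group with gaps larger than the distance between replicates. Slc15a5 read 6.90 and 8.65 against 10.41 and 10.80, and Olfr994 read 5.86 and 8.17 against 9.15 and 11.30. Both were below the background median on control array 1 and above it on control array 2.

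The other 6 of these genes were below the background median on both control arrays, so that only a bound can be given. With each control array taken at its background, Olfr906 was at least 2.23-fold, Scgb2b3 at least 2.04-fold, Olfr206 at least 2.02-fold, Clca3b at least 1.99-fold, Tgm4 at least 1.85-fold and Msh5 at least 1.26-fold higher with maslinic acid. The measured log2 differences of these genes ran from 1.91 to 2.71. The background median itself was lower on the maslinic acid arrays than on the control arrays, and its part in these differences was not tested.

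**Figure D3:**
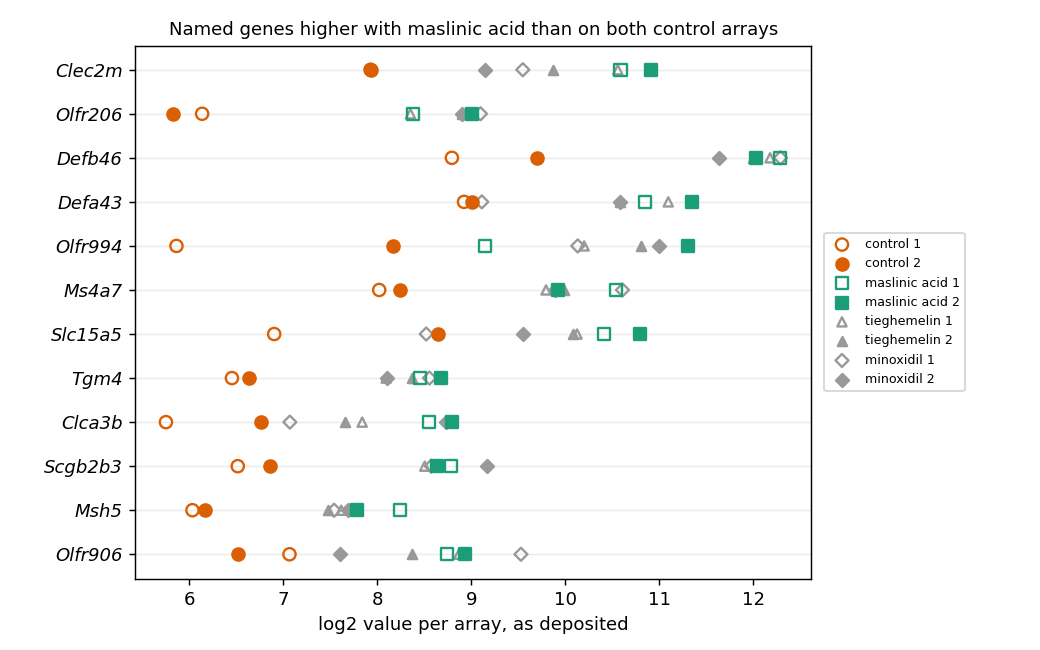
Deposited log2 values (x axis) of the 12 named higher genes on each of the 8 arrays, with 1 point per array. Clec2m stands at 7.93 on both control arrays and at 10.59 and 10.91 on the maslinic acid arrays. The maslinic acid points lie right of both control points for each gene, as the rule for named genes requires.

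Against control array 2 alone, limma's adjusted p of the 24 named genes lay between 0.0441 for Aldoa and 0.272 for Olfr994. The next after Aldoa were Fhl1 at 0.0772 and Clec2m and Olfr206, both at 0.0793.

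The medians of several lists differed with the control array used. Receptors of smell and pheromones, most of which have no known role in skin, made up 1427 probe sets. Against both controls 162 of them were called higher and 31 lower (4.45% of all probe sets were called lower), with a median of 0.40. Their median was 0.77 against control array 1 and 0.03 against control array 2, where 125 were called higher and 82 lower. Of all probe sets, 6.39% were called higher against both controls and 6.21% against control array 2. By brightness the median receptor fell in decile 8 of all probe sets, whose median was 0.55 against control array 1 and 0.02 against control array 2. How far brightness accounts for the list medians was not tested. Many receptors have close copies, and a probe set can read more than 1 of them.

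Keratin-associated proteins, which fill the hair shaft between the keratin filaments, also differed by control array. Of 50 measured, 39 had a higher mean with maslinic acid against both controls, with 5 called higher, 2 lower and a median of 0.74. Of all probe sets, 6.39% were called higher and 4.45% lower against both controls. The median was 1.32 against control array 1 and -0.05 against control array 2 (0.02 after quantile normalisation), where 2 were called higher and 7 lower. By brightness the median member fell in decile 9 of all probe sets, whose median was 0.84 against control array 1 and 0.02 against control array 2. Krtap6-5 read 11.87 on control array 1, 15.62 on control array 2, and 14.31 and 14.37 on the maslinic acid arrays, between the controls. For 16 members both maslinic acid arrays lay above both controls, as for 20.8% of all probe sets. For 3 members both lay below both controls, as for 17.9% of all probe sets, and of these 3 Krtap19-5 and Krtap7-1 were called lower. Krtap19-5 read 8.17 and 8.73 on the control arrays and 6.99 and 6.80 on the maslinic acid arrays, a difference of -1.56 (SE 0.47). Krtap7-1 read 8.69 and 8.63 against 7.66 and 6.84, a difference of -1.41 (SE 0.40). Maslinic acid array 2 read below its background for both genes, and array 1 at its background for Krtap19-5, which limits these folds.

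Cytosolic ribosomal proteins had the widest gap between the controls. Of 62 measured, 42 had a higher and 20 a lower mean with maslinic acid against both controls, with a median of 0.47, but 1 was called higher and 6 lower. Among all probe sets these shares were 6.39% and 4.45%. The median was 1.68 against control array 1 and -1.0 against control array 2. By brightness the median member fell in decile 10 of all probe sets, whose median was 1.93 against control array 1 and -0.01 against control array 2. Against control array 2, 55 were lower and 7 higher, both maslinic acid arrays lay below it for 48, and 31 were called lower and 0 higher, where 6.57% of all probe sets were called lower. Rpl41 read 11.19 and 16.14 on control arrays 1 and 2 and 14.45 and 13.77 on the maslinic acid arrays. Rps29 read 10.86 and 12.98 against 10.94 and 11.15, and Rps7 read 10.02 and 13.30 against 12.21 and 10.31. The treated arrays thus lay between the control arrays for all 3 of these genes. Ribosomal proteins ranked lower on control array 1 than elsewhere: the median percentile of the list among all probe sets of an array was 69.2 there and between 86.9 and 95.1 on the other 7. On the tieghemelin and minoxidil arrays, set against the same control array 2, the medians of the list were -1.03 and -0.78.

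Subunits of the respiratory chain, which carry out oxidative phosphorylation in mitochondria, differed by control array in the same directions as the ribosomal proteins. Of 75 measured, 63 were lower and 12 higher against control array 2, with 23 called lower, 0 called higher and a median of -0.69. Against control array 1 the median was 0.36, and against both controls it was -0.12, with 1 called higher and 8 lower. Among all probe sets 6.39% were called higher and 4.45% lower against both controls. Atp5a1 of the ATP synthase read 9.15 and 13.31 on the control arrays and 11.05 and 9.97 on the maslinic acid arrays. Uqcrb of complex III read 9.23 and 15.46 against 13.92 and 12.38. Both genes overlapped between the groups through control array 1.

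**Figure D4:**
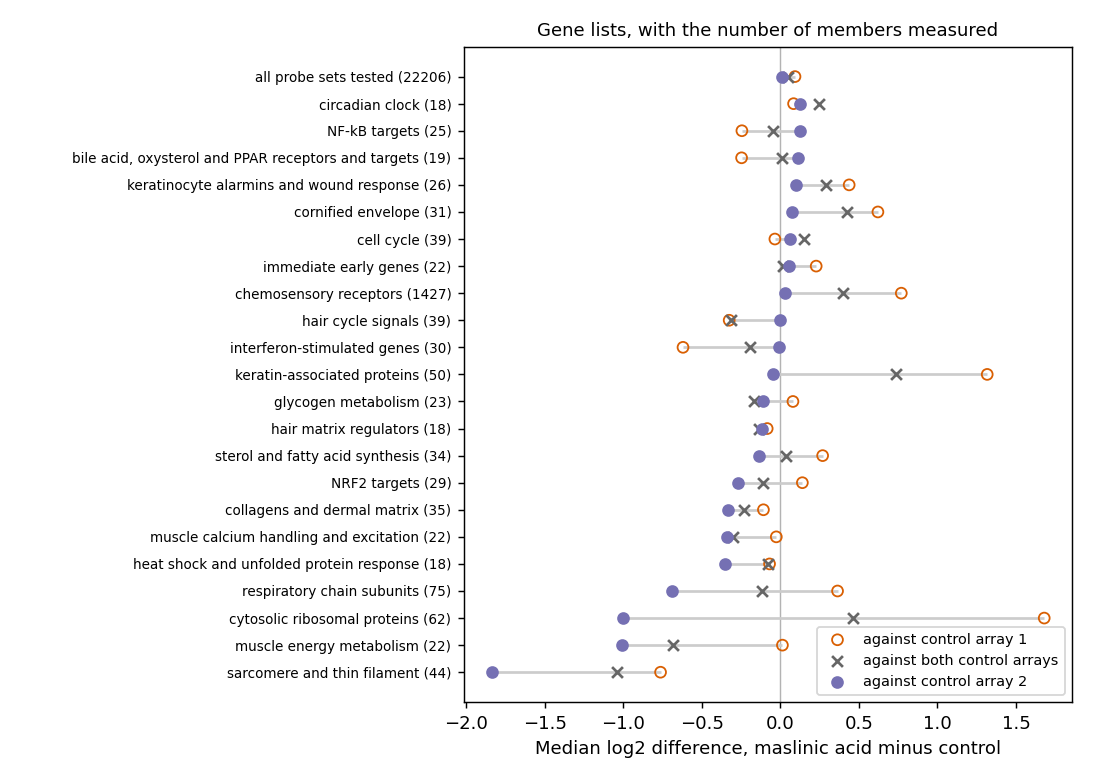
Median log2 difference, maslinic acid minus control (x axis), over the measured members of the 22 lists of processes and over all 22206 probe sets, against control array 1, control array 2 and both. The sarcomere list lies below 0 in all 3 (-0.76, -1.84 and -1.04), whereas the ribosomal list is at 1.68 against control array 1 and at -1.0 against control array 2.

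The counts of called members that follow stand beside these shares of all probe sets: 6.39% called higher and 4.45% lower against both controls, and 6.21% higher and 6.57% lower against control array 2. Markers of the main skin cells also differed with the control array. Of 12 markers of basal keratinocytes, 2 were called higher and 1 lower against both controls, and 1 higher and 5 lower against control array 2, with medians of -0.04 and -0.78. Krt5, the basal type II keratin, read 10.09 and 13.72 on control arrays 1 and 2 and 11.40 and 10.18 on the maslinic acid arrays, a difference of -2.93 (SE 0.70) against control array 2 and -1.11 (SE 1.12) against both. Trp63, the transcription factor p63 of the basal layer, was lower than on both controls, at 9.79 and 10.15 against 9.01 and 8.32, a difference of -1.31 (SE 0.42). Itga6, the integrin alpha 6 of hemidesmosomes, was higher, at 7.74 and 7.46 against 8.54 and 9.59. Both control arrays were below background for Itga6, which was at least 2.73-fold higher than on control array 2 with that array at its background. Of 11 markers of dermal fibroblasts 0 were called against both controls (median -0.20), while 3 were called lower and 0 higher against control array 2 (median -0.73). Their median against control array 1 was 1.06.

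Suprabasal keratinocyte and cornified envelope genes, which build the outer barrier, were called in both directions. Of 31 genes of the cornified envelope, 4 were called higher and 2 lower against both controls (median 0.43), and 4 higher and 3 lower against control array 2 (median 0.07). Klk7, a protease that sheds corneocytes, read 6.51 and 7.67 on the control arrays and 8.96 and 9.13 on the maslinic acid arrays, a difference of 1.96 (SE 0.48), with control array 1 below its background. Krtdap, a protein of differentiating keratinocytes, read 9.88 and 9.66 against 8.31 and 8.55, a difference of -1.33 (SE 0.41). The arrays separated by group for both genes.

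Hair follicle structure was mixed as well. Of 11 inner root sheath markers 1 was called higher and 1 lower against both controls (median 0.04), and 1 higher and 3 lower against control array 2 (median -0.27). Tchh, trichohyalin, the filament-linking protein of the sheath, read 9.23 and 9.24 on the control arrays and 10.44 and 10.27 on the maslinic acid arrays, a difference of 1.12 (SE 0.45). Krt28, a sheath keratin, went the other way, at 9.21 and 9.35 against 8.31 and 8.32, a difference of -0.96 (SE 0.33). Krt71, the partner keratin of the sheath, read 9.03 and 13.97 on control arrays 1 and 2 and 11.01 and 8.88 on the maslinic acid arrays, a difference of -4.02 (SE 0.73) against control array 2 and -1.55 (SE 1.41) against both. Tchh and Krt28 separated by group, whereas Krt71 did not.

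Of 12 keratins of the hair cortex and cuticle, 2 were called higher and 0 lower against both controls, with a median of 0.10, and 2 higher and 1 lower against control array 2, with a median of 0.03. Krt40 read 8.41 and 7.77 on the control arrays and 9.71 and 9.91 on the maslinic acid arrays, a difference of 1.72 (SE 0.39). Krt39 read 7.75 and 8.38 against 9.39 and 9.22, a difference of 1.24 (SE 0.38), with control array 1 at its background. Krt31, a main cortex keratin, read 8.32 and 8.27 against 9.04 and 9.10, a difference of 0.78 (SE 0.36) that did not reach the study's thresholds. Krt40, Krt39 and Krt31 separated by group, and limma's adjusted p of Krt40 against both controls was 0.448. Krt35 read 6.755 and 8.61 against 7.99 and 7.49, so that its groups overlapped. Its difference was 0.05 (SE 0.58) against both controls and -0.88 against control array 2. Of the 12 keratins, 7 had a higher and 5 a lower mean against both controls.

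Signals of the hair cycle were called in both directions. Of 39 measured WNT, BMP, hedgehog, FGF and related genes, 2 were called higher and 2 lower against both controls (median -0.32), and 1 higher and 2 lower against control array 2 (median -0.00). Bmp6, a BMP ligand of the resting follicle, read 10.42 and 9.42 on the control arrays and 8.46 and 8.54 on the maslinic acid arrays, a difference of -1.41 (SE 0.41). Nog, the BMP antagonist noggin, read 6.54 and 6.05 against 7.35 and 7.68, a difference of 1.22 (SE 0.41). Both control arrays were below background for Nog and the maslinic acid arrays just above it, so that no fold is given. Vegfa, the angiogenic growth factor, read 10.07 and 10.38 against 11.35 and 11.06, a difference of 0.98 (SE 0.44).

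Regulators of the hair matrix, such as Lef1 and Msx2, had 0 called higher and 1 called lower of 18 against both controls and against control array 2. Shh, the hedgehog ligand of growing follicles, chosen after its values were seen, read 10.004 and 9.72 on the control arrays and 9.96 and 9.55 on the maslinic acid arrays, with no separation. Among 13 bulge and hair germ markers 1 was called higher and 0 lower against both controls, and 2 higher and 1 lower against control array 2. Sox9, a transcription factor of the stem cells of the follicle, read 7.11 and 8.60 against 9.26 and 9.73, a difference of 1.64 (SE 0.51) against both and 0.90 against control array 2, with control array 1 below its background. Lgr5, a receptor for R-spondins on stem cells, read 9.07 and 8.64 against 9.53 and 9.45, a difference of 0.64 (SE 0.35).

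**Figure D5:**
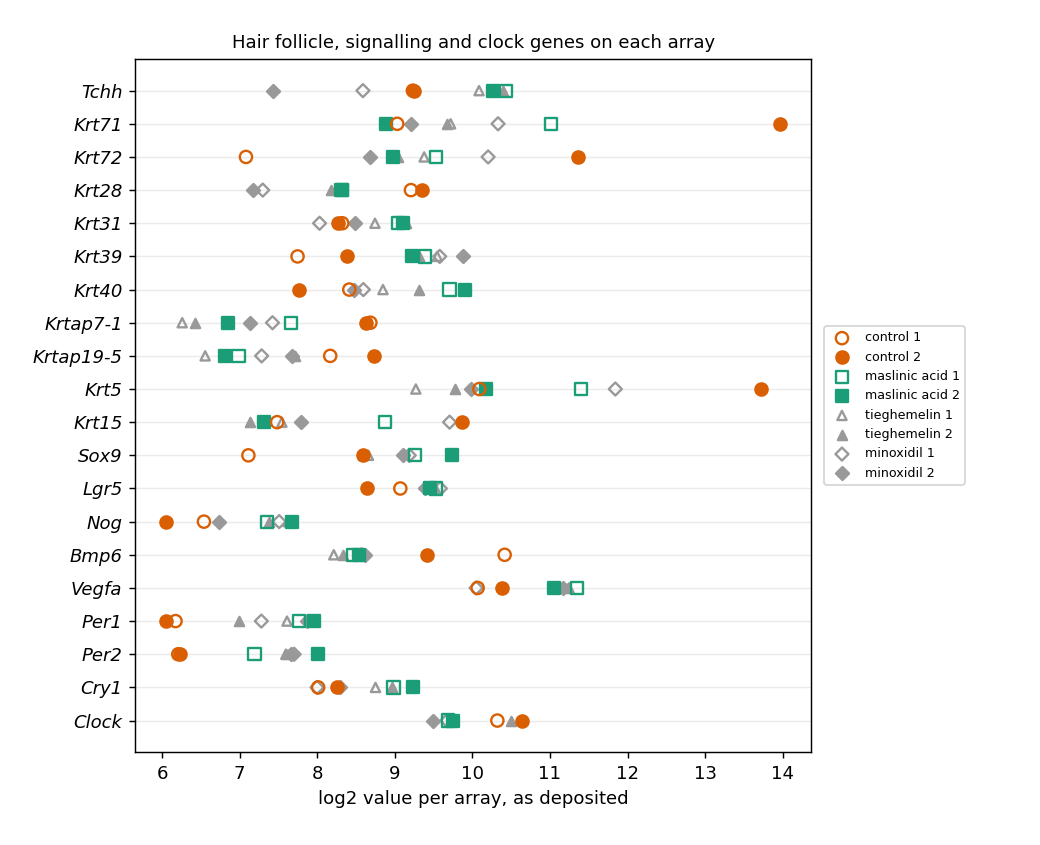
Deposited log2 values (x axis) of 20 genes of the hair follicle, its signals and the circadian clock on each of the 8 arrays, with 1 point per array. Krt40 stands at 8.41 and 7.77 on the control arrays and at 9.71 and 9.91 on the maslinic acid arrays, while Krt71 and Krt5 have control array 2 far right of all others, at 13.97 and 13.72.

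The circadian clock, a feedback loop in which CLOCK and its partner drive the period and cryptochrome genes that repress them, also runs in skin. Of 18 measured clock genes, 3 were called higher and 1 lower against both controls, and 3 higher and 1 lower against control array 2, with medians of 0.25 and 0.13. Per1 read 6.17 and 6.05 on the control arrays and 7.77 and 7.96 on the maslinic acid arrays, a difference of 1.75 (SE 0.40). Both control arrays were below background for Per1, and with control array 2 at its background Per1 was at least 1.19-fold higher than on that array. Per2 read 6.21 and 6.23 against 7.19 and 8.01, and its control arrays were also below background, which left no bound above 1.

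Cry1 was above background on every array of this comparison, at 8.01 and 8.26 on the control arrays and 8.98 and 9.24 on the maslinic acid arrays, a difference of 0.98 (SE 0.35). Clock read 10.32 and 10.64 against 9.69 and 9.75, a difference of -0.76 (SE 0.39). Per1, Per2 and Cry1 were higher and Clock was lower on both maslinic acid arrays than on both control arrays. Against the same controls, Per1 and Per2 also read higher on every tieghemelin and minoxidil array. Cry1 read higher on both tieghemelin arrays, but on minoxidil array 1 it read 7.997, below both controls. Clock read lower on both minoxidil arrays and tieghemelin array 1, but 10.49 on tieghemelin array 2, between the controls. In all, the groups did not overlap for 11 of the 18 clock genes, 6 higher and 5 lower. Of all probe sets, 20.8% were higher and 17.9% lower without overlap. Arntl and Dbp, chosen after their values were seen, were among those that overlapped. Arntl, the partner of CLOCK, read 8.48 and 8.36 against 8.59 and 7.95, and Dbp, an output of the clock, read 9.36 and 9.55 against 9.77 and 9.34. The time of day at which skin was taken is not given in the sources used here.

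Among inflammatory genes, 0 of 25 NF-kB targets were called higher and 4 lower against both controls (median -0.05), where 4.45% of all probe sets were called lower. With control array 2 as the only control, 2 were called higher and 5 lower (median 0.13), where 6.57% of all probe sets were called lower. Il1b, the cytokine interleukin 1 beta, read 10.14 and 9.49 on the control arrays and 8.66 and 7.67 on the maslinic acid arrays, a difference of -1.65 (SE 0.46). Nfkbia, the inhibitor of NF-kB, read 8.53 and 8.63 against 7.96 and 7.04, a difference of -1.08 (SE 0.41), with maslinic acid array 2 just below its background. Il1b and Nfkbia separated by group. Tnfaip3, another target, read 8.75 and 7.20 against 8.18 and 8.60, so that its groups overlapped. Relb went the other way, at 6.62 and 6.44 against 6.95 and 8.25, a difference of 1.07 (SE 0.51). For Relb both control arrays and maslinic acid array 1 were below background. Without overlap, 6 members of the list were higher and 6 lower, where 20.8% and 17.9% of all probe sets were. Of 30 interferon-stimulated genes 1 was called higher and 1 lower against both controls (median -0.19), and 3 higher and 2 lower against control array 2 (median -0.01).

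Of 29 targets of NRF2, the regulator of antioxidant defence, 2 were called higher and 2 lower against both controls, and 0 higher and 4 lower against control array 2 (median -0.27). Nqo1, a quinone reductase, read 9.13 and 8.25 on the control arrays and 7.17 and 7.15 on the maslinic acid arrays, a difference of -1.53 (SE 0.46). Fth1, the heavy chain of the iron store ferritin, was -3.13 against control array 2 and -1.88 (SE 1.29) against both. Of 18 heat shock and unfolded protein genes, 1 was called higher and 2 lower against both controls (median -0.08), and 1 higher and 4 lower against control array 2 (median -0.35). Among them Hsp90b1, a chaperone of the endoplasmic reticulum, read 8.05 and 10.24 against 8.04 and 7.59. Its difference of -2.42 against control array 2 stood beside -1.33 (SE 0.65) against both. Of 19 genes of bile acid, oxysterol and PPAR receptors and their targets, 0 were called against either control set.

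Among lipid and fat genes, 3 of 34 sterol and fatty acid synthesis genes were called higher and 2 lower against both controls, and 2 higher and 4 lower against control array 2. Elovl3, the fatty acid elongase of sebaceous glands, read 8.17 and 8.60 on the control arrays and 7.07 and 7.52 on the maslinic acid arrays, a difference of -1.09 (SE 0.37). Of 11 adipocyte markers 0 were called higher and 1 lower against both controls, and 0 higher and 3 lower against control array 2. Slc2a4, the insulin-dependent glucose transporter of fat and muscle, read 8.33 and 8.20 against 6.88 and 7.29, a difference of -1.18 (SE 0.44) with maslinic acid array 1 below its background, and Adipoq, the fat hormone adiponectin, read 8.47 and 8.85 against 7.95 and 7.87. Of 39 cell cycle genes 2 were called higher and 1 lower against both controls and against control array 2, with Mcm2, a subunit of the replication helicase, at 7.65 (below background) and 7.66 against 8.42 and 8.91. Mki67, another cell cycle gene, read 8.77 and 9.75 against 9.12 and 8.66, a difference of -0.37 (SE 0.43) with overlap. Of the 39 cell cycle genes 21 had a higher and 18 a lower mean against both controls. Markers of blood and immune cells had 0 or 1 member called per list against both controls. Of 12 macrophage, 10 T cell, 5 B cell, 10 mast cell and 11 neutrophil markers, 1 (a T cell marker) was called higher and 0 lower against both controls, and 0 were called higher and 1 (a mast cell marker) lower against control array 2.

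Maslinic acid was then set against tieghemelin, given at the same labelled dose and for the same time, on the 6 treated arrays alone. The control arrays take no part in this difference. Limma called 195 probe sets higher (0.878%) and 152 lower (0.684%) with maslinic acid at the study's thresholds. After adjustment 0 had a p under 0.05, while 507 had an unadjusted p up to 0.05. Leaving out maslinic acid array 2 raised the 347 calls at the study's thresholds to 781, with 7 adjusted calls. Over all probe sets the arrays of these treatments correlated at 0.95 to 0.97.

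Muscle genes led the side that was higher with maslinic acid. The first 5 of the 150 eligible genes were Tnnt3, Car3, Myh8, Myh1 and Neb, the last encoding the thin filament ruler nebulin. Tnnt3 read 13.88 and 9.82 on the maslinic acid arrays and 8.68 and 6.94 on the tieghemelin arrays, a difference of 4.05 (95% interval 1.82 to 6.27), with tieghemelin array 2 just below its background. Myh8 read 14.80 and 11.73 against 11.20 and 10.38, a difference of 2.48 (0.82 to 4.13). Maslinic acid array 1 was the highest of the 4 for both genes. Neb was below background on both tieghemelin arrays and its level with maslinic acid was at least 3.23-fold higher. Of the 20 muscle fibre markers all had a higher mean with maslinic acid than with tieghemelin (median 1.34), 7 were called higher, and of the 44 sarcomere genes 13 were called higher and 0 lower. The median level of the fibre markers was 11.48 and 8.94 on maslinic acid arrays 1 and 2, and 8.84 and 8.61 on the tieghemelin arrays. For the sarcomere genes it was 9.76 and 8.66 against 8.58 and 8.65. The gap in median level thus lay mostly in maslinic acid array 1. For all 10 genes named in this comparison limma's adjusted p was 1.

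On the other side, Hif1a, the oxygen-regulated transcription factor, read 8.37 and 8.71 on the maslinic acid arrays and 9.24 and 10.50 on the tieghemelin arrays, a difference of -1.33 (95% interval -2.37 to -0.29). The microglia and macrophage marker Aif1 read 7.40 and 6.19 against 7.63 and 8.48, a difference of -1.25 (-2.23 to -0.28), with maslinic acid array 2 below its background. The potassium channel subunit Kcns2 was below background with maslinic acid, and at least 1.59-fold lower. Ssxb3 and Zfp273 had differences of -1.22 and -1.20. Outside muscle the lists lay close to each other between these treatments, with medians of 0.15 for ribosomal proteins, 0.09 for the respiratory chain, -0.08 for keratin-associated proteins and -0.31 for keratinocyte alarmins. The intervals of single genes were wide. For Clec2m the difference between the compounds was 0.54 with a 95% interval of -0.21 to 1.28, and for Defb46 it was 0.07 with an interval of -0.64 to 0.78.

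Against minoxidil, the reference drug for hair growth, limma called 1178 probe sets higher (5.3%) and 1285 lower (5.79%) with maslinic acid on the same 6 arrays. Leaving out minoxidil array 2 raised the total of 2463 to 3803. After adjustment 0 had a p under 0.05, the smallest adjusted p being 0.0987, while 3024 had an unadjusted p up to 0.05. Since minoxidil array 2 carries conflicting dose labels, the compared doses may not match for it. The 5 named higher genes were Fabp4, Tchh, Esf1, Dpy30 and Foxr2, and the 5 lower were Apol7d, Sorbs2, Olfr133, Olfr1138 and Ddx51.

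Trichohyalin differed between these treatments. Tchh read 10.44 and 10.27 on the maslinic acid arrays and 8.59 and 7.42 on the minoxidil arrays, a difference of 2.35 (95% interval 1.496 to 3.20), with limma's adjusted p at 0.164. Foxr2, a forkhead transcription factor, read 11.57 and 11.45 against 9.60 and 9.56, a difference of 1.93 (1.28 to 2.59), with close replicates on both sides. Dpy30, a subunit of histone H3 methyltransferase complexes, read 8.85 and 10.08 against 7.73 and 7.23, the last below its background. Fabp4, the fatty acid binding protein of fat cells, had the largest difference of the 5 higher genes at 2.36, but read 15.17 and 11.25 against 10.56 and 11.14, so that maslinic acid array 1 set it. In the lower group, Sorbs2, an actin adaptor protein, read 6.24 and 7.25 on the maslinic acid arrays and 8.78 and 9.15 on the minoxidil arrays, a difference of -2.22 (-3.05 to -1.39). Apol7d read 7.69 and 6.92 against 10.38 and 9.05, a difference of -2.41 (-3.53 to -1.29). For each of these genes 1 maslinic acid array read below its background, array 1 for Sorbs2 and array 2 for Apol7d, so that the differences are not fully measured. Ddx51, an RNA helicase, was below background with maslinic acid and at least 1.94-fold lower.

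The muscle lists had few calls between these treatments. Of 20 muscle fibre markers 0 were called in either direction, with a median of -0.35, and of 44 sarcomere genes 0 were called higher and 1 lower. Inner root sheath markers had 3 of 11 called higher and 0 lower, with a median of 0.32, and hair shaft keratins 2 of 12 higher and 0 lower, with a median of 0.32. Of 1427 chemosensory receptors 41 were called higher and 161 lower with maslinic acid than with minoxidil, with a median of -0.21. For all 10 named genes limma's adjusted p lay between 0.164 and 0.3.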

How the data were processed

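Clariom S Mouse arrays of skin RNA were normalised in Transcriptome Analysis Console 4.0.1, per the series' design text, and Expression Console and RMA are listed per the submitters' processing notes. The authors' deposited values were treated as log2, judged by their range and by a ceiling near 19.93. RMA as commonly run scales arrays to a common distribution, but the deposited log2 values of control array 1 had an SD of 1.32 where the other arrays had 1.62 to 1.69. The genome build of the files is not given in the sources used here. Of 28846 probe sets, 6640 controls were left out, and no further scaling or filter was applied to the other 22206. Names came from the platform annotation (19572 probe sets with 1 symbol, 0 with several, 2634 unnamed), and all 19572 matched RefSeq by gene ID. Promoters are from RefSeq.

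Groups follow the sample titles. Comparisons used limma 3.58.1 (lmFit, eBayes) in R 4.3.3 with 1 mean per group. Benjamini-Hochberg adjustment ran over every probe set tested, with 4 residual degrees of freedom on 8 arrays and 3 without control array 1 or on the 6 treated arrays. The fitting code was tested on simulated data. The comparison, gene lists and rules were chosen with earlier results of these data known. Named genes have 1 symbol, are no predicted genes, pass the study's thresholds, show no overlap between groups and have the higher group above background on both arrays. Against control they are ranked by the smaller distance to a control array (12 per direction), elsewhere by size (5 per direction). Up to 4 members per list are those furthest from control array 2 with both maslinic acid arrays on 1 side, and the text describes some of them. A gene with several probe sets is taken by its brightest. For a bound, an array of the group below background counts at its background level or its own value, whichever is higher. The titles number the arrays of each group 1 and 2. Deviations from the group means of same-numbered arrays correlated at -0.07 for control and maslinic acid, -0.17 for tieghemelin and maslinic acid and 0.07 for minoxidil and maslinic acid, so that the numbers were not taken as pairs. Alternatives were a replicate block, a filter on dim probe sets, quantile and median scaling, other eBayes settings, an unmoderated model, other sets of arrays and leaving out each array.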

Additional observations from a re-analysis of the deposited data

How the results depend on the processing

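With 2 arrays per group, and 1 control array that stands apart, counts moved with the settings. No named gene changed direction within its own comparison. The 24 genes named against control were chosen to lie on 1 side of both controls, so leaving out an array could not reverse them. List members were varied only without control array 1. Some list members did differ in direction between the control sets. Rpl41 differed by 0.45 from both controls and by -2.02 from control array 2, and Uqcrb by 0.80 and -2.31. At the study's thresholds the counts against both controls, against control array 2, against tieghemelin and against minoxidil were 1219, 1606, 153 and 1404 with dim probe sets filtered out (11103 probe sets tested) and 1473, 1458, 113 and 1158 with an unmoderated model. The 2 groups alone gave 821 against both controls, and fits on all 8 arrays gave 68 against tieghemelin and 800 against minoxidil. Leaving out 1 array at a time gave 773 to 10499, 1932 to 3319, 363 to 781 and 2072 to 3803, and adjusted calls of 0 to 8282, 0 to 58, 0 to 7 and 0 to 1. The extremes against both controls came without maslinic acid array 2 and without control array 2 (23 of 24 named genes then passed the adjustment). Against control array 2, the 58 came without maslinic acid array 1. Adjusted calls against control array 2 were 14 with a replicate block, 7 with trend and robust eBayes, and 0 after the filter, after quantile normalisation and in the unmoderated model, where Aldoa lost its call, as it did on leaving out any other array except maslinic acid array 1. Against minoxidil, quantile normalisation and trend and robust eBayes each gave 1. With the replicate block, counts at the study's thresholds were 2316, 2563, 348 and 2477. A crossed block against tieghemelin, chosen after seeing the data, gave 408 such calls and 0 adjusted. The filter left 936 higher and 283 lower against both controls. The cause of these shifts was not tested. Of 180 list medians under other settings, 93 moved by more than the spread between arrays. Probe sets near background allow no fold, and those near the ceiling understate it.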
